A study of Mus musculus with 14 samples.

Results

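The genes described here encode the nuclear subunits of the mitochondrial respiratory chain and of ATP synthase, with the complex I assembly factors whose names share the same stem. They were chosen by symbol alone, as the probe sets with a single gene symbol beginning with Nduf, Uqcr, Cox4 to Cox8 or Atp5, or being Sdha, Sdhb, Sdhc or Sdhd, with Cyc1 and Cycs added and the brightest probe set kept for each gene. This gave 91 of the 19752 genes with a probe set of their own, and 88 of them were bright enough to be tested. Complex I had 34 genes, its assembly factors 7, complex II 4, complex III 9, cytochrome c 1, complex IV 19 (16 tested) and complex V 17. The 3 members left out as too dim were Cox7b2, Cox8b and Ndufa4l2.

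RNA came from splenic CD4+ T cells of male C57BL/6 mice aged 6 weeks, obtained by negative selection, stimulated for 48 h with CD3/28 beads and then kept in interferon alpha (IFNa, 100 U/ml) together with a JAK inhibitor for 8 h or 2 h. All 14 arrays therefore share the bead activation and the interferon, and arrays without an inhibitor were not analysed here. The 7 inhibitors are known by the target in their label, JAK1 (IFN.3404 in the sample titles), JAK1/2 (IFN.6221), PAN (IFN.6222), TYK2 (IFN.2485), JAK2 (IFN.3885) and, for 2 compounds, JAK3 (IFN.6226 and IFN.6228), each with 1 array per time and at a concentration labelled IC80. No label says how many mice or cultures stood behind an array, so p-values here measure the spread between arrays after an additive fit of inhibitor and time.

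Oxidative phosphorylation moves electrons from NADH through complex I, or from succinate through complex II, to ubiquinone, then through complex III, cytochrome c and complex IV to oxygen. Complexes I, III and IV pump protons across the inner membrane, and complex V, the ATP synthase, uses the return flow to make ATP. Most subunits are encoded in the nucleus and imported, a few are encoded in mitochondrial DNA, and T cells are known to enlarge this machinery when they are activated.

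The T cell label held on every array, with Cd3e, which belongs to the antigen receptor of T cells, at 12.27 to 12.53 and Cd4 at 11.50 to 12.11 on the log2 intensity scale. The intensities were already normalized when deposited, so each value is relative to the other genes of its array, and a change in the number of cells of a type and a change in RNA per cell cannot be told apart. Upper quartiles of intensity lay between 444 and 497 on 12 arrays, and below that on the 8 h arrays of JAK1 (398) and JAK1/2 (427). The skeletal muscle list averaged 7.16 on the JAK1 8 h array, 7.24 on the JAK1/2 8 h array and 7.27 on the JAK1/2 2 h array, against 6.42 to 6.72 on the others. Many of the results that rest on those arrays are given with and without them.

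**Figure D1:**
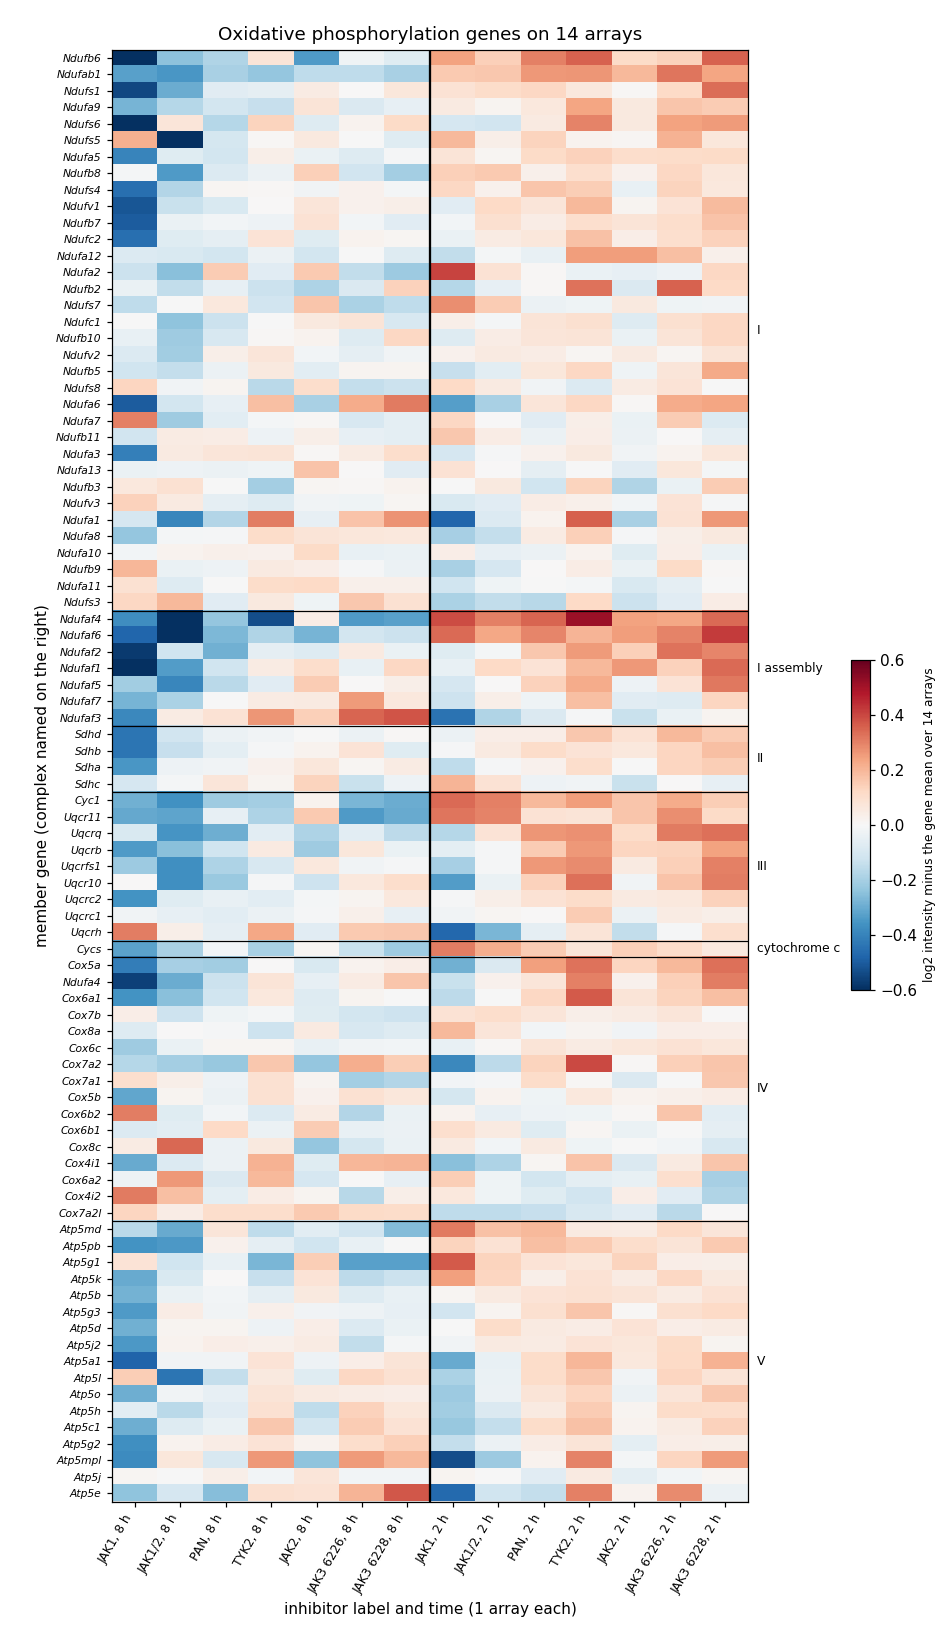
Each row is 1 of the 88 tested member genes, grouped by complex and ordered within it by the change between times, and each column is 1 array, with the 8 h arrays left of the 2 h arrays. Colour is the log2 intensity minus the gene's mean over 14 arrays. The 8 h side is bluer for the assembly factors and complex III, and the JAK1 8 h column is the darkest blue for many genes.

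At 8 h, compared with 2 h, 36 of the 88 tested members were lower and 4 were higher (limma, Benjamini-Hochberg adjusted over all 11851 genes tested, threshold 0.05). Over all genes tested, 28% were lower and 21.3% higher. The members' share of lower genes was 40.9%, their share of higher genes 4.55%, and their median log2 difference was -0.10, against 0.02 for all genes. The changes were small, from a fall of 0.68 to a rise of 0.25 on the log2 scale. Between 8 h and 2 h, 25 members had a lower value with every one of the 7 inhibitors, which 22.2% of all genes did.

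In complex I, which takes electrons from NADH, 10 of 34 genes fell and 1 rose, with a median log2 difference of -0.09. The share that fell, 29.4%, was near the 28% of all genes tested. The share that rose was 2.94%, against 21.3%. Ndufb6, an accessory subunit of the membrane arm, had a log2 intensity of 10.62 at the lowest, 11.30 at the median and 11.56 at the highest at 8 h. At 2 h the same values were 11.60, 11.73 and 11.84, so the times did not overlap. The 8 h minus 2 h difference was -0.47 ± 0.08 (SE, limma adjusted p = 0.000273), and the JAK1 array was the lowest at 8 h.

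Ndufab1, the mitochondrial acyl carrier protein that also sits in complex I, lay at 9.41, 9.56 and 9.60 (lowest, median and highest) at 8 h. At 2 h it lay at 9.92, 9.99 and 10.08. All 7 arrays at 8 h were below all 7 at 2 h, with a log2 difference of -0.46 ± 0.05 (SE, limma adjusted p = 2.06e-06). The other 8 members that fell were the core subunits Ndufs1 and Ndufv1, which carry part of the electron path from NADH, and Ndufa5, Ndufa9, Ndufb7, Ndufb8, Ndufc2 and Ndufs4. The 1 that rose was the core subunit Ndufs3, at 0.15 ± 0.05 on the log2 scale (SE, limma adjusted p = 0.0326), and it was lower at 8 h with 1 of the 7 inhibitors. Without the 3 arrays of higher muscle genes the calls of Ndufa5, Ndufb7, Ndufb8, Ndufs1 and Ndufv1 were lost, and Ndufs3 differed by 0.08 (limma adjusted p = 0.176). Ndufa5 and Ndufb7 also lost theirs without the JAK1 8 h array alone. Ndufs4 kept its call, but its difference of -0.18 became -0.11 without the JAK1 8 h array and -0.09 without the 3 arrays.

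The complex I assembly factors, which build the complex and do not stay in it, had a median log2 difference of -0.31, and 4 of 7 fell while 1 rose. That median was -0.23 without the JAK1 8 h array, against -0.24 in complex III, and -0.18 without the 3 arrays of higher muscle genes, against -0.23 in complex III. Ndufaf4 had a log2 intensity of 6.99 with JAK1, 6.75 with JAK1/2, 7.13 with PAN, 6.82 with TYK2, 7.40 with JAK2, 7.02 with IFN.6226 and 7.03 with IFN.6228 at 8 h. At 2 h it was 7.75 with JAK1, 7.66 with JAK1/2, 7.71 with PAN, 7.87 with TYK2, 7.60 with JAK2, 7.59 with IFN.6226 and 7.70 with IFN.6228. The times were apart on all arrays, with JAK2 the highest at 8 h, and the difference was -0.68 ± 0.09 (SE, limma adjusted p = 1.82e-05), a 1.60-fold fall.

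Ndufaf6 fell by 0.58 ± 0.07 on the log2 scale (SE, limma adjusted p = 1.09e-05), with 5.96 to 6.45 at 8 h and 6.76 to 6.98 at 2 h. Ndufaf1 and Ndufaf2 both had a log2 difference of -0.31 (limma adjusted p = 0.00455 and 0.000956), and both overlapped between times. Ndufaf1 differed by -0.18 without the 3 arrays (limma adjusted p = 0.0106). Ndufaf3, a partner of Ndufaf4 in building the part of complex I that binds ubiquinone, moved the other way. It lay at 8.85, 9.38 and 9.62 (lowest, median and highest) at 8 h and at 8.80, 9.15 and 9.25 at 2 h, and it was higher at 8 h with all 7 inhibitors, by 0.25 ± 0.06 (SE, limma adjusted p = 0.00169).

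In complex II, the succinate dehydrogenase that also belongs to the TCA cycle, 2 of 4 genes fell. These were Sdhb, the iron-sulphur subunit, at -0.17 ± 0.05 (SE, limma adjusted p = 0.0135), and the membrane anchor Sdhd, at -0.18 ± 0.05 (SE, limma adjusted p = 0.00786). The flavoprotein Sdha had a log2 difference of -0.07 (limma adjusted p = 0.198) and the other anchor, Sdhc, one of -0.02 (limma adjusted p = 0.851).

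Complex III, which passes electrons from ubiquinol to cytochrome c, had 6 of 9 genes lower and 1 higher at 8 h, with a median log2 difference of -0.24. Cyc1, the cytochrome c1 subunit, lay at 10.42, 10.51 and 10.81 (lowest, median and highest) at 8 h and at 10.94, 11.01 and 11.13 at 2 h. No 8 h array reached the 2 h range, JAK2 came nearest, and the difference was -0.46 ± 0.06 (SE, limma adjusted p = 1.26e-05). Uqcr11, a small accessory subunit, fell by 0.38 ± 0.07 (SE, limma adjusted p = 0.000673), with the JAK2 array at 8 h inside the 2 h range. The other genes that fell were Uqcrq, Uqcrb, the Rieske iron-sulphur protein Uqcrfs1 and the core protein Uqcrc2. Uqcrh, the hinge protein next to cytochrome c1, rose by 0.22 ± 0.07 (SE, limma adjusted p = 0.0239), but not with every inhibitor. Without the JAK1 8 h array this difference was 0.13 (limma adjusted p = 0.0139). Without the 3 arrays of higher muscle genes it was 0.09 and did not pass (limma adjusted p = 0.0527), and without JAK1/2 alone it did not pass either.

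Cycs, the cytochrome c that carries electrons to complex IV and also takes part in apoptosis, lay at 12.37, 12.50 and 12.70 (lowest, median and highest) at 8 h and at 12.74, 12.83 and 13.00 at 2 h. The ranges did not overlap, and the difference was -0.30 ± 0.05 (SE, limma adjusted p = 0.000163). The JAK1 array was both the lowest at 8 h and the highest at 2 h.

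In complex IV, cytochrome c oxidase, 5 of 16 tested genes were lower and 1 was higher. These shares, 31.2% and 6.25%, compare with 28% and 21.3% of all genes tested. The median log2 difference was -0.03, which became -0.06 without the JAK1 8 h array. Cox5a fell by 0.24, Ndufa4, a subunit first assigned to complex I, by 0.21, Cox6a1 by 0.21 and Cox7b by 0.12 on the log2 scale (limma adjusted p from 0.0059 to 0.00131), and Cox6c fell as well. Cox7a2l, a relative of the Cox7a subunits, lay at 8.84 to 8.96 at 8 h and at 8.64 to 8.80 at 2 h. It was higher without overlap, by 0.22 ± 0.05 (SE, limma adjusted p = 0.00301). Its second probe set differed by 0.05 between the times, and the call was lost with the mean of both.

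In complex V, 8 of 17 genes fell and none passed the threshold in the other direction, with a median log2 difference of -0.10. Atp5md, a small membrane subunit, lay at 11.82, 11.97 and 12.20 (lowest, median and highest) at 8 h and at 12.18, 12.24 and 12.44 at 2 h, an overlap by the PAN array alone, and fell by 0.28 ± 0.05 (SE, limma adjusted p = 0.000246). The others were the alpha and beta subunits Atp5a1 and Atp5b, the delta subunit Atp5d, the stalk subunit Atp5pb, the c subunit genes Atp5g1 and Atp5g3, and Atp5k. Of these, Atp5a1 (-0.10) and Atp5g3 (-0.11) lost their calls under cyclic loess and on leaving out PAN, TYK2, IFN.6226 or IFN.6228. Atp5k lost its call without TYK2, without IFN.6226 or without the 3 arrays of higher muscle genes. Without overlap between the times there were 7 lower members over all complexes (Atp5pb, Cyc1, Cycs, Ndufab1, Ndufaf4, Ndufaf6 and Ndufb6) and 1 higher (Cox7a2l), against 15.6% lower and 8.87% higher of all genes.

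**Figure D2:**
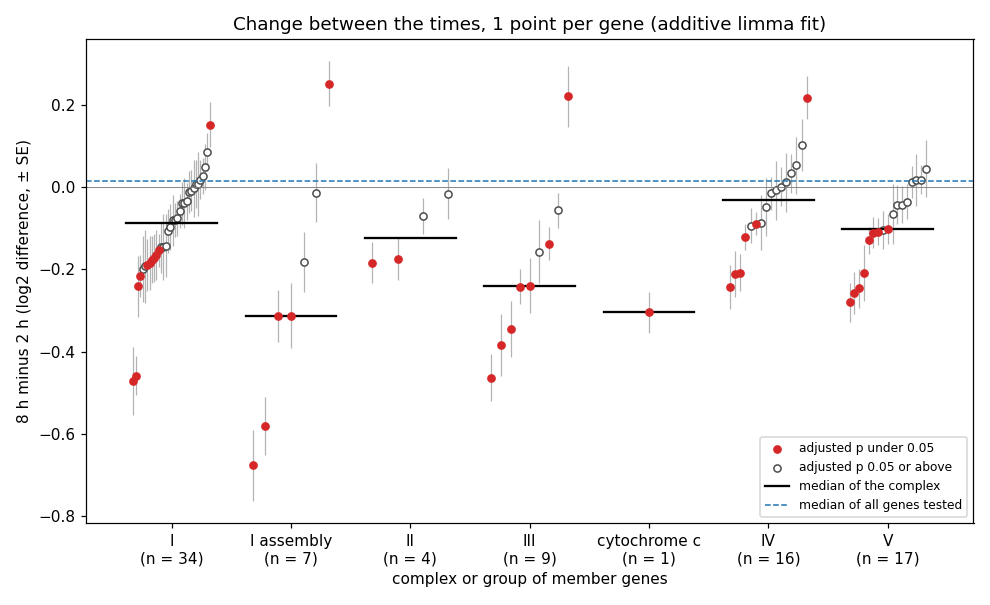
Each point is the log2 difference between 8 h and 2 h of 1 tested member gene with its standard error, by complex, red where the adjusted p was under 0.05, with a black bar at the median and a dashed line at the median of all genes. The medians run from -0.31 for the assembly factors and -0.24 for complex III to -0.03 for complex IV, all on 14 arrays.

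**Figure D3:**
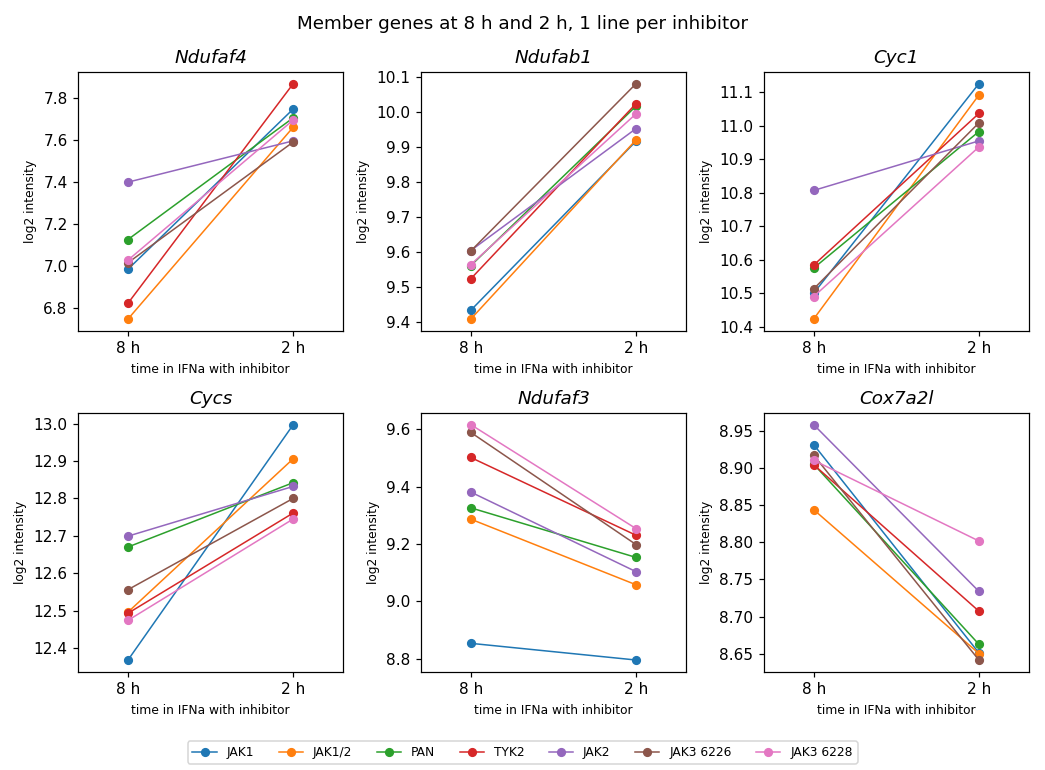
Log2 intensity of 6 member genes at 8 h (left) and 2 h (right), with 1 line per inhibitor and 1 array per point. Ndufaf4, Ndufab1, Cyc1 and Cycs are lower at 8 h with all 7 inhibitors, and Ndufaf3 and Cox7a2l are higher.

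The direction at 8 h was shared by 6 inhibitors as deposited. The median log2 change of the 88 members, 8 h minus 2 h, was -0.17 with JAK1, -0.10 with JAK1/2, -0.11 with PAN, -0.10 with TYK2, -0.11 with IFN.6226 and -0.12 with IFN.6228, but -0.00 with JAK2. Over all genes tested the median was -0.10 with JAK1, -0.03 with JAK1/2, 0.01 with PAN and 0.02 with TYK2. It was -0.02 with IFN.6226, 0.00 with IFN.6228 and 0.05 with JAK2. After cyclic loess, which aligns the arrays over the whole range of brightness, the members' median was -0.09 with JAK2 and -0.05 with JAK1. That of all genes was then -0.00 with each. The JAK2 8 h array had the highest upper quartile of intensity, at 497, and the JAK1 8 h array the lowest. In total, 34 members were lower under cyclic loess, 33 of them among the 36.

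Markers of cells also moved with time. All 6 T cell markers with a probe set rose, with list means of 12.002 to 12.067 at 8 h and 11.65 to 11.81 at 2 h. All 4 tested B cell markers rose too, with list means of 8.54 to 8.79 at 8 h and 8.11 to 8.32 at 2 h. Their part in the fall of the members was not tested.

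The upstream sequences of 4 of the genes that fell most, with a RefSeq promoter entry, are shown because these members moved together, and that of Atp5g1 because it was the 1 member that was higher in the JAK1 comparison. They are the 250 bases before the annotated start (RefSeq, GRCm38.p6), on the strand of the gene. Capitals mark matches, on either strand, to motifs of factors known for nuclear genes of the respiratory chain, GCGCANGCG for NRF1, CCGGAAG for the ETS factor GABP and AAGATGGC for YY1. Matches to different motifs do not overlap here, and the capitals of Ndufaf4 hold an NRF1 match on each strand. They lie at chr4:24897833-24898082 (plus strand, Ndufaf4), chr4:40279422-40279671 (minus, Ndufb6), chr7:122101849-122102098 (minus, Ndufab1), chr10:80406822-80407071 (minus, Uqcr11) and chr11:96075632-96075881 (minus, Atp5g1).
Ndufaf4: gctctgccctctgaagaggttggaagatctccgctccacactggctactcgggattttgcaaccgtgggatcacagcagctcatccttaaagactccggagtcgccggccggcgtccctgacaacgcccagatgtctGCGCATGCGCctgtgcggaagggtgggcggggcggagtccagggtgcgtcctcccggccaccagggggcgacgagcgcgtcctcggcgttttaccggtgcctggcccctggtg
Ndufb6: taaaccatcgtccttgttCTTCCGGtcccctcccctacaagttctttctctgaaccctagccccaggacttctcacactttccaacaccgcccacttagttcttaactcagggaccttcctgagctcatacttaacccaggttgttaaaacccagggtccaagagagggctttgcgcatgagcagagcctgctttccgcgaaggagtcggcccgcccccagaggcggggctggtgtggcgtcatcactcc
Ndufab1: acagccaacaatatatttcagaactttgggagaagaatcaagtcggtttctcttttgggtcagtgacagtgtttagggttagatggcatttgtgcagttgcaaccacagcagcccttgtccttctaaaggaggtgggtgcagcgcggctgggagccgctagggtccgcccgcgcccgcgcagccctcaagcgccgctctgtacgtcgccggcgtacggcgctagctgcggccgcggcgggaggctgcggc
Uqcr11: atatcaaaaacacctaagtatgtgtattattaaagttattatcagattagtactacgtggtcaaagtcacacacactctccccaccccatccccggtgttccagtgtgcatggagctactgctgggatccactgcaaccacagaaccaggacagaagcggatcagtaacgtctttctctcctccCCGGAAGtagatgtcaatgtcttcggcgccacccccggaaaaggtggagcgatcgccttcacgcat
Atp5g1: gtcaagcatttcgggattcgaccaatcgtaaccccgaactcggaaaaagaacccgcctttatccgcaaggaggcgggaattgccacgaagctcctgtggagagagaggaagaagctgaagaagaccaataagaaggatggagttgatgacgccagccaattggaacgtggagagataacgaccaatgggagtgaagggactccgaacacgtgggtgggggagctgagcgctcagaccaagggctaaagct

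Ndufaf4 held the NRF1 motif, Ndufb6 and Uqcr11 1 GABP match each, and Ndufab1 and Atp5g1 none of the 3 motifs. Over the 74 members with a RefSeq entry, 15 (20.3%) held the NRF1 motif, against 5.86% of all 27025 genes with an entry. The GABP motif stood in 13 members (17.6%) and in 7.83% of all genes, and the YY1 motif in 1 member (1.35%) and in 1.83% of all genes. The NRF1 motif stood in 6 of 28 members that fell at 8 h (21.4%) and in 9 of the remaining 46 (19.6%), and the GABP motif in 6 of 28 (21.4%) and in 7 of 46 (15.2%). A match describes letters and shows no binding.

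Genes of other mitochondrial lists fell at 8 h too, beside 28% of all genes, and differences between lists were not tested. Of 25 genes for protein import, 20 fell and none passed in the other direction, with a median log2 difference of -0.27. The chaperone Hspa9, which pulls proteins into the matrix, fell by 1.06 ± 0.05, with a median of 10.32 at 8 h and 11.40 at 2 h and no overlap (SE, limma adjusted p = 1.45e-09). The carrier chaperone Timm8a1 fell by 1.15 and the folding chaperone Hspd1 by 0.67. In the mitochondrial ribosome, 26 of 46 large subunit genes fell and 1 rose, and 16 of 26 small subunit genes fell.

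In the TCA cycle, 11 of 16 genes fell and 1 rose, led by Idh3a, a subunit of isocitrate dehydrogenase, at -0.64 ± 0.06 (SE, limma adjusted p = 1.28e-06). Of 21 tested carriers, porins and related genes, 13 fell and 2 rose. Of 16 tested regulators of mitochondrial gene expression, 8 fell. The coactivator Pprc1 fell by 1.41 ± 0.08 (SE, limma adjusted p = 5.15e-09). Gabpb1, the beta subunit of GABP, fell by 0.63, and Lrpprc, which stabilises mitochondrial mRNA, fell by 0.47. Assembly factors outside the naming rule went both ways, with 12 lower and 8 higher of 37. The 2 mitochondrially encoded subunits with a probe set, ND3 and COX2, differed by 0.01 and 0.04 on the log2 scale between the times and did not pass.

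With the JAK1 inhibitor (2 arrays), compared with the other 6 inhibitors (12 arrays), 29 of 88 members were lower and 1 was higher (limma, adjusted over all genes). Over all genes tested, 6.73% were lower and 0.937% higher, and after cyclic loess these shares were 6.36% and 5.97%. The members' median log2 difference was -0.14, against -0.05 for all genes. By complex, 7 of 34 in complex I were lower, 3 of 7 assembly factors, 3 of 4 in complex II, 2 of 9 in complex III, 6 of 16 in complex IV and 8 of 17 in complex V.

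As deposited, the members' lower values did not rest on the 8 h array alone. With that array left out, their median log2 difference went from -0.14 to -0.10, and that of all genes from -0.05 to 0.01. After cyclic loess the members' median, relative to the other arrays of the same time, was -0.01 on the JAK1 8 h array, as was that of all genes. On the JAK1 2 h array it was -0.09, against 0.01 for all genes. After that scaling the shift of the members' median thus rested on the 2 h array. Leaving out the 8 h array keeps only the 2 h array for JAK1. Precision is then lower too, so the number of calls lost cannot show how much rested on the 8 h array. Without it, 10 members were lower and none passed in the other direction, while 1.75% of all genes were lower, and 5 of the 10 were among the 29. With the 3 arrays of higher muscle genes left out, 17 were lower (11 among the 29) and 5 higher, against 3.12% and 1.68% of all genes. Under cyclic loess 24 were lower and 3 higher, against 6.36% and 5.97% of all genes. Under quantile normalization 23 were lower and 3 higher, against 6.4% and 6.29% of all genes. Lower as deposited, under all 3 other scalings and without the 8 h array were Atp5a1, Atp5mpl, Cox5a and Ndufa6.

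Atp5a1, the alpha subunit of the F1 head of ATP synthase, stood at 11.27 on the JAK1 array at 8 h, against 11.72, 11.76 and 11.83 (lowest, median and highest) on the other 6. At 2 h it stood at 11.44 with JAK1, against 11.71, 11.86 and 11.96. JAK1 was the lowest at both times, and the difference was -0.46 ± 0.05 (SE, limma adjusted p = 0.000124), or -0.41 without the 8 h array (limma adjusted p = 0.000847).

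Atp5mpl, a small proteolipid bound to ATP synthase, stood at 9.27 with JAK1 at 8 h, against 9.40, 9.78 and 9.91, and at 9.12 with JAK1 at 2 h, against 9.43, 9.72 and 9.94. It was lowest with JAK1 at both times, by 0.53 ± 0.09 (SE, limma adjusted p = 0.00364). Ndufa6, an accessory subunit of complex I, was 9.66 with JAK1 at 8 h, against 9.96 to 10.47 with the others, and 9.83 at 2 h, against 9.96 to 10.39, a difference of -0.49 ± 0.07 (SE, limma adjusted p = 0.00166). Cox5a, a nuclear subunit of complex IV, was lowest with JAK1 at both times as well, by 0.41 ± 0.08 (SE, limma adjusted p = 0.00587).

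The next members had smaller differences without the 8 h array. Ndufs6, an accessory subunit of complex I, stood at 8.12 with JAK1 at 8 h, against 8.74 to 9.04 with the others, but at 8.81 at 2 h, inside the range of 8.79 to 9.21. Its log2 difference was -0.52 (limma adjusted p = 0.0167), and -0.23 without the 8 h array (limma adjusted p = 0.421). Ndufaf1, an assembly factor, differed by -0.53 (limma adjusted p = 0.0128), and by -0.23 without that array (limma adjusted p = 0.358). Ndufaf3 was lowest with JAK1 at both times, by 0.48 ± 0.08 (SE, limma adjusted p = 0.00266), and without the 8 h array the difference was -0.37 (limma adjusted p = 0.06).

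Atp5e, the epsilon subunit of ATP synthase, differed by -0.41 with JAK1, and by -0.52 without the 8 h array, where it kept its call (limma adjusted p = 0.0492). It lost its call under cyclic loess (-0.31, limma adjusted p = 0.0915).

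In complex II, Sdha, Sdhb and Sdhd were lower with JAK1 by 0.29, 0.26 and 0.28 on the log2 scale (limma adjusted p = 0.0133, 0.0497 and 0.0351), and Sdhc differed by 0.06 (limma adjusted p = 0.7). At 8 h Sdha stood at 10.46 with JAK1, against 10.79 to 10.88 with the others, and at 2 h at 10.66, against 10.81 to 10.96. Sdhb and Sdhd lost their calls under median centring (limma adjusted p = 0.086 and 0.0682). Both also lost them on leaving out PAN, TYK2, IFN.6226 or IFN.6228. Under cyclic loess both kept them, at -0.17 each (limma adjusted p = 0.043 and 0.0346). No complex II gene passed without the 8 h array.

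The 3 genes for subunit c, whose ring turns as protons pass, encode the same mature protein and differ in the leader that is removed on import. Of these, Atp5g1 was named by size and the others were added after their values were seen. Atp5g1 was 12.21 with JAK1 at 8 h, against 11.80, 11.93 and 12.28 (lowest, median and highest) with the others, and 12.50 at 2 h, against 12.17, 12.21 and 12.27. JAK1 was above all others at 2 h and second to JAK2 at 8 h, and the difference was 0.26 ± 0.07 (SE, limma adjusted p = 0.0317). The difference was 0.29 without the 8 h array (limma adjusted p = 0.106) and 0.25 under median centring (limma adjusted p = 0.0811), neither past the threshold, and the call was kept under cyclic loess (limma adjusted p = 0.00929).

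Atp5g2 was 12.49 with JAK1 at 8 h, against 12.87 to 12.99, and 12.71 at 2 h, against 12.79 to 12.93, a difference of -0.30 ± 0.05 (SE, limma adjusted p = 0.00597). Atp5g3 was 11.48 with JAK1 at 8 h, against 11.77 to 11.86, and 11.70 at 2 h, against 11.82 to 11.98, a difference of -0.27 ± 0.06 (SE, limma adjusted p = 0.0115). Both were lowest with JAK1 at both times, opposite to Atp5g1. Without the 8 h array the limma adjusted p was 0.0843 for Atp5g2 and 0.13 for Atp5g3.

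**Figure D4:**
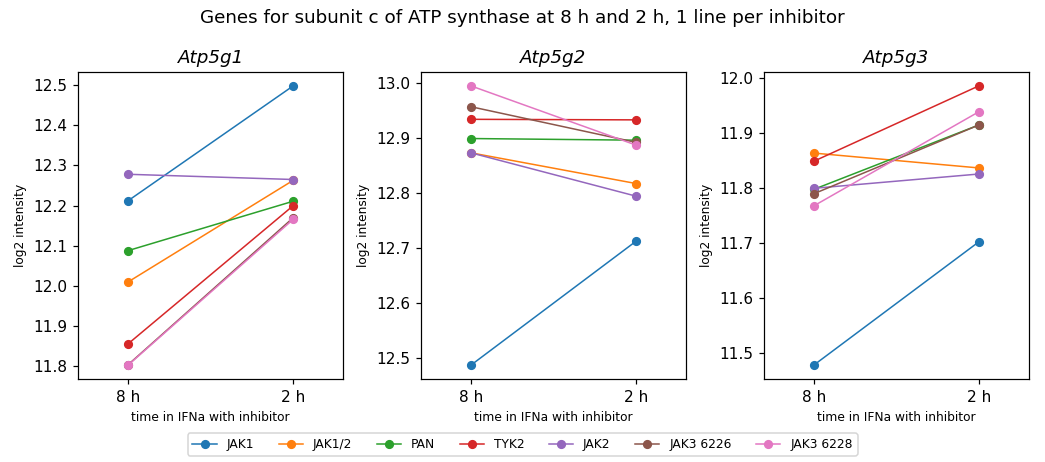
Log2 intensity of the 3 subunit c genes at 8 h (left) and 2 h (right), 1 line per inhibitor and 1 array per point. The JAK1 line lies below the other 6 at both times for Atp5g2 and Atp5g3, and above them at 2 h for Atp5g1, where it reaches 12.50.

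The 2 JAK1 arrays differed from the others in unlike ways. At 8 h the median log2 difference of the members from the other 6 arrays was -0.13 as deposited, and that of all genes was -0.12. Cyclic loess brought the first to -0.01 and the second to -0.01, and quantile normalization brought them to -0.03 and -0.01. At 2 h the members' median was -0.10 as deposited, -0.09 after cyclic loess and -0.08 after quantile normalization, while that of all genes was 0.01, 0.01 and 0.02.

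JAK1 was the lowest of the 7 arrays for 41 of 88 members at 8 h, against 45.3% of all genes, and for 49 of 88 members at 2 h, against 19.6% of all genes. After cyclic loess the members numbered 32 at 8 h and 49 at 2 h, and the shares of all genes were 30.6% and 21.3%. After quantile normalization they numbered 31 at 8 h and 45 at 2 h, and the shares of all genes were 31.6% and 19.5%. At 8 h the members' share was near that of all genes.

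Of the members, 51 lay in the brightest of 5 equal bins of tested genes and 19 in the next. In these bins all genes had a median of -0.17 and -0.23 on the JAK1 8 h array, relative to the other 6, and members had -0.20 and -0.23. After cyclic loess the members' medians there were -0.11 and -0.03, and those of all genes -0.00 and -0.02. The 5 members in the dimmest bin had a median of -0.14 as deposited on that array, against 0.06 for all genes of the bin, and the 4 in the middle bin 0.01, against -0.19.

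The 10 members that were lower with JAK1 when its 8 h array was left out comprised Atp5a1, Atp5mpl, Atp5e, Cox5a and Ndufa6, together with Ndufa1, Cox7a2, Uqcr10, Uqcrh and Uqcrq, accessory subunits of complexes I, IV and III. Uqcrh was 11.67 with JAK1 at 8 h, the highest of 7, against 11.29 to 11.59, and 10.89 at 2 h, the lowest, against 11.09 to 11.46. Cycs had the opposite order, lowest with JAK1 at 8 h and highest at 2 h. With 1 array per inhibitor and time, an interaction of this kind could not be tested.

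**Figure D5:**
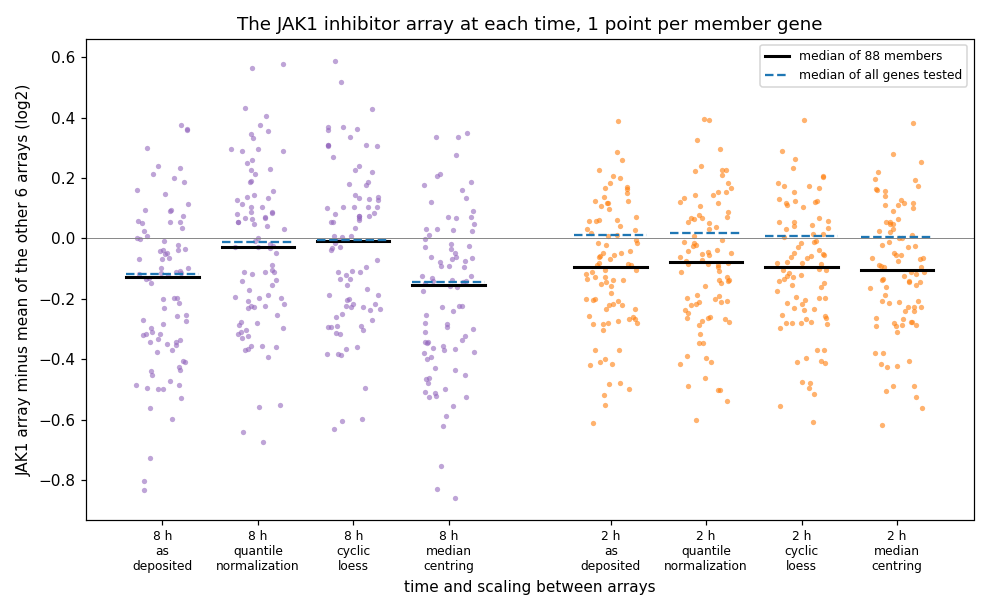
Each point is the log2 difference of the JAK1 array from the mean of the other 6 arrays of its time for 1 of 88 member genes, at 8 h (purple, left) and 2 h (orange, right), as deposited and under 3 scalings. Black bars are medians of the members and dashed bars those of all genes. At 8 h the 2 medians move together, from -0.13 and -0.12 as deposited to -0.01 each after cyclic loess, and at 2 h they stay apart.

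Among nuclear mitochondrial genes outside the rule, 9 of 21 carriers and related genes, 5 of 16 TCA cycle genes, 5 of 25 import genes, 7 of 46 large and 6 of 26 small ribosomal subunit genes and 5 of 37 other assembly factors were lower with JAK1, beside 6.73% of all genes. The ribosomal protein gene Mrpl11 had the largest difference among those named, at -0.75 ± 0.12 (SE, limma adjusted p = 0.00267). No regulator of mitochondrial gene expression passed, and 4 of 16 had an unadjusted p under 0.05, as did 3070 of all 11851 genes.

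None of the other 6 inhibitors, each set against the remaining 6, gave a member past the threshold in limma, where 0.00844% of all genes were higher with JAK1/2 and 0.0759% with JAK2. At an unadjusted p under 0.05 there were 14 members for JAK1/2 (5.23% of all genes), 2 for PAN (0.321%), 17 for TYK2 (4.81%), 1 for JAK2 (4.64%), 9 for IFN.6226 (3.18%) and 14 for IFN.6228 (6.89%). The members' median log2 difference was -0.06 for JAK1/2, 0.06 for TYK2, 0.05 for IFN.6226 and 0.06 for IFN.6228. Since each is measured against arrays that include JAK1, these values are tied to each other.

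Between the inhibitors labelled JAK3, IFN.6226 minus IFN.6228, no member passed in limma, and none had an unadjusted p under 0.05 (0.354% of all genes did). The members' differences ran from -0.19 to 0.17 on the log2 scale with a median of -0.01. Their 95% intervals extended by a median of 0.22 to each side and reached -0.50 and 0.46 at the ends, so differences of that size are not excluded for single genes.

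Inhibitors that name JAK1 or TYK2 (4 inhibitors, counting PAN as one that includes JAK1) were set against those naming only JAK2 or JAK3, since the receptor for type I interferon signals through JAK1 and TYK2. No member passed in limma at 8 h, at 2 h or in the change between them, where 0.692% of all genes were lower at 2 h and 0.101% were higher in the change. At an unadjusted p under 0.05 there were 5 members at 8 h (15.6% of all genes), 1 at 2 h (4.1%) and 1 for the change (10.1%). Without overlap between the classes, 8 members were lower and 1 higher at 8 h, against 13.6% and 5.56% of all genes, and no member was apart at 2 h, against 3.13% lower and 1.88% higher of all genes. Atp5e had the smallest p at 8 h, with a log2 difference of -0.35 ± 0.11 (SE, limma adjusted p = 0.307). The members' median at 8 h was -0.10, against -0.08 for all genes, and became -0.01 after cyclic loess.

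Several subunits of complex IV and its neighbours have copies that are known to be restricted to other tissues. The copies of heart and skeletal muscle, Cox6a2 and Cox7a1, ran from 7.76 to 8.22 and from 6.67 to 7.04 over all arrays, and neither passed for time or for JAK1. Cox8b, also of muscle, was below the filter, at 5.76 to 6.27. The lung copy Cox4i2 and the testis copies Cox6b2 and Cox8c did not pass in either comparison, and Cox7b2, also of testis, was below the filter. Among the widely used copies, Cox4i1 was lower with JAK1 by 0.32 (limma adjusted p = 0.0116) and Cox6a1 by 0.30 (limma adjusted p = 0.012), while Cox6b1 and Cox8a differed by 0.01 and 0.07 and did not pass. Cox4i1 lost its call without IFN.6228 (limma adjusted p = 0.0579) and Cox6a1 without TYK2 (limma adjusted p = 0.0516). Without the JAK1 8 h array, which leaves 1 JAK1 array, they differed by -0.27 and -0.30.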

How the data were processed

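The deposited table gives 1 linear intensity per probe set and array of the Affymetrix Mouse Gene 1.0 ST design. Per the submitters' processing notes the authors used Affymetrix Power Tools and RMA. Versions and build are not given in the sources used here. Intensities were put on the log2 scale. Of 24922 probe sets, 21425 had 1 gene symbol, and the brightest was kept per gene. Genes at or above the 40th percentile of mean log2 intensity (6.269) were tested, 11851 in all. All 91 members matched the GRCm38.p6 RefSeq table by Entrez identifier.

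Time and single inhibitors were tested in R 4.3.3 with limma 3.58.1, as 1 additive fit of inhibitor and time with trend (6 residual degrees of freedom). Classes were tested on 1 value per inhibitor (4 against 3). The inhibitor links the times and is a block in the fit. P-values were adjusted by Benjamini-Hochberg over all genes tested. On simulated data 92.5% of log2 changes of 0.5 were recovered for time and 76.1% for JAK1. For the classes the share was 74.6% at 8 h, 68.7% at 2 h and 31.3% in the change, and for the JAK3 pair 47.8%. The simulated noise was drawn for each gene alone from the residual spread of the additive fit. It left out steady differences between inhibitors, so the shares for the classes at 8 h and 2 h may be too high. Smaller changes were not simulated. Python 3.11.15 made tables and plots.

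Members, lists and tests were chosen with earlier results of these data known. Named members had the largest changes past the threshold, up to 8 per direction (with 1 sign in all 7 inhibitors for time), or the smallest p, with complex II, Cyc1, Cycs and tissue-restricted copies.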

Additional observations from a re-analysis of the deposited data

Results flagged for a closer look

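In 18 of 102 groups of 7 arrays (each named member at 8 h or 2 h, with the means of the complexes), 1 array stood far from the rest by Dixon's ratio. Chance gives about 1 in 20 for groups not chosen by their values. Many of these members were named for large differences with JAK1 or between the times, so their number cannot be set against that rate. Groups that share an array are also not independent of each other.

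Most were the JAK1 array at 8 h. It was the low one for Atp5a1 (11.27), Atp5d (13.03), Cox6c (12.81), Ndufc2 (12.09), Ndufs4 (11.43), Ndufs6 (8.12), Ndufv1 (9.47), Sdha (10.46), Sdhb (10.10), Sdhd (9.77) and Uqcrc2 (11.54) on the log2 scale. It was also the low one for the means of complex II (10.18) and complex V (11.08), and the high one for the dim Cox7b2 (4.70). The same array had the lowest upper quartile of intensity, 398.

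At 2 h the JAK1 array was the high one for Atp5g1 (12.50) and the low one for Ndufaf3 (8.80). The IFN.6226 array at 2 h was high for Cox6b2 (7.16), and the JAK2 array at 8 h was high for Cyc1 (10.81).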

How the results depend on the processing

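The members lower at 8 h numbered 30 to 41 with an inhibitor left out and 31 to 41 under the other scalings, filters and moderation, against 36 as reported. Without the inhibitor as the replicate block that pairs the times, 30 were lower and 4 higher. The members higher at 8 h, 4 as reported, became 2 with the mean of probe sets and 2 without the 3 arrays of higher muscle genes (an alternative chosen after seeing the data), and were 2 to 4 with an inhibitor left out (2 without JAK1/2). Of all 40 time calls, 8 were lost without those 3 arrays, 7 without the variance trend, 6 without the block and at most 7 with an inhibitor left out. The median for time ran from -0.11 to -0.09 with an inhibitor left out.

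For JAK1, 29 lower members became 17 with no variance trend, 10 without its 8 h array and 17 without the 3 arrays. With another inhibitor left out they were 14 to 31 (14 without TYK2, 15 without IFN.6228, 16 without IFN.6226). The 1 higher member became 3 under quantile normalization and cyclic loess, 0 without the 8 h array, under median centring or without the variance trend, 5 without the 3 arrays and 0 to 1 with an inhibitor left out (0 without TYK2, IFN.6226 or IFN.6228). The median of -0.14 became -0.055 under quantile normalization, -0.068 under cyclic loess, -0.10 without the 8 h array and -0.11 without the 3 arrays, and ran from -0.16 to -0.13 with an inhibitor left out. The class median at 8 h, -0.10, became -0.0055 under quantile normalization and -0.0067 under cyclic loess and ran from -0.13 to -0.04 with an inhibitor left out, and that at 2 h ran from -0.06 to -0.01. The JAK1 8 h array's median became -0.027 and -0.0091 under them, and -0.154 under median centring. The cause of these shifts was not tested. Over the named members that passed, 470 of the recomputed time calls held and 21 were lost, and for JAK1 266 held and 90 were lost. Counts of 0 for the other comparisons stayed at 0 with an inhibitor left out. The arrays, 1 per inhibitor and time, limit precision, and 3 dim members could not be tested.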
